A study of Mus musculus with 16 samples.

Results

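The chemokine genes Ccl2, Ccl7, Cxcl10 and Cxcl16 and the chemokine receptor genes Ccr2 and Cxcr3 were followed across 16 arrays of mouse peritoneal macrophages and splenic CD4 T cells. The 6 genes were chosen by symbol, out of 19752 genes measured, and each had 1 probe set of its own. Whole-transcript arrays (Affymetrix Mouse Gene 1.0 ST) gave 1 intensity per probe set, and levels are given as log2 intensity, so that a difference of 1 is a doubling. From its title, the study concerned the need of interferon-stimulated genes for IFNAR1, part of the receptor for type I interferon, and for the kinase Tyk2. The arrays formed 8 groups of 2.

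All animals were male, and all treated mice received 10000 U of IFNα under the skin. Macrophages sorted as ICAM2+ F4/80+ came from 6-week-old Ifnar1-deficient mice (B6.129S2-Ifnar1tm1Agt/Mmjax, a targeted mutation carried in every cell). They formed a pair titled as treated for 2 h and a pair titled without IFNα. The preparation text of the pair without IFNα nevertheless states the injection; the titles were followed here. The same sort on B10.Q/J mice aged 7 weeks, whose Tyk2 carries a natural mutation, gave macrophages 2 h or 5 h after IFNα or after vehicle. CD4 T cells sorted as TCRB+ CD4+ CD8- from the spleen of 7-week-old B10.Q/J mice came from the same 3 treatments. In both cell types array 1 of the vehicle pair was taken at 2 h and array 2 at 5 h. Neither line has both an intact Ifnar1 and an intact Tyk2, so strain, age and both genes cannot be told apart between the KO and B10.Q macrophages. Whether the arrays of a pair stem from separate animals is not in the labels, and the p-values may therefore rest on a technical spread between samples.

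Chemokines are small secreted proteins that draw leukocytes along a gradient by binding G protein-coupled receptors. CCL2 and CCL7 are ligands of CCR2, the receptor that lets inflammatory monocytes leave the marrow and enter tissue. CXCL10 is a ligand of CXCR3 on activated T and NK cells and was first described as an interferon-induced protein, whereas CXCL16 is made as a membrane-bound protein and binds CXCR6. Type I interferon signals through IFNAR1 and IFNAR2, with the kinases TYK2 and JAK1, and many of the genes it induces carry the interferon-stimulated response element (ISRE).

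Of the ligands, Cxcl10 had a sequence upstream of its start in the RefSeq table (assembly GRCm38.p6), as had the receptors Ccr2 and Cxcr3. It is shown because Cxcl10 is one of the 3 ligands that stood highest in B10.Q macrophages 2 h after IFNα. The sequence covers the 250 bases before the start of Cxcl10 at chr5:92348890-92349139, minus strand, written 5′ to 3′ on the gene's strand. Capitals mark the matches to the ISRE letters and the NF-kB letters.

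Cxcl10: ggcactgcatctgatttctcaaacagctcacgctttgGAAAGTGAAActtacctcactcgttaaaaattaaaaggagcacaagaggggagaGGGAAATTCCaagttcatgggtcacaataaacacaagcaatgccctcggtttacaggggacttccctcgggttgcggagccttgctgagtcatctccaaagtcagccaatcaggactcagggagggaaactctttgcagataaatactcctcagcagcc

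The ISRE was searched on both strands as GAAA, any 2 bases and GAAA again, and the match in Cxcl10 reads GAAAGTGAAA, from 213 to 204 bases before the start. The NF-kB motif was searched on both strands as GGGA, any 2 bases and TTCC, and the match reads GGGAAATTCC, from 159 to 150 bases before the start. The 2 matches do not overlap. Of 32851 upstream windows of this length, 2.98% hold the ISRE letters and 1.21% the NF-kB letters. The GAS motif TTCNNNGAA (7.02% of windows) and the TATA letters TATAAA (12.4%) are not in the Cxcl10 window. The windows of Ccr2 and Cxcr3 hold 0 matches to any of these 4 motifs. A match describes the letters only.

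The array medians ran from 173.57 to 193.7 in linear intensity, and the arrays of a pair correlated at 0.9837 to 0.9971 across genes. The number of arrays, 2 per group, limits the precision. The labelled cell types were checked on marker lists. The mean log2 level of the CD4 T-cell markers was 11.65 to 11.95 on the T-cell arrays and 6.58 to 6.93 on the macrophage arrays. Peritoneal macrophage markers averaged 11.78 to 12.44 on the macrophage arrays and 7.06 to 7.16 on the vehicle T-cell arrays. Probes for Ifnar1 did not separate the lines: the gene was read at 9.93 to 10.31 in KO and at 10.09 to 10.46 in B10.Q macrophages, so its level does not check the KO labels. Differences below are means of group differences ± SE from limma, with p-values adjusted by Benjamini-Hochberg over all genes tested, and an adjusted p under 0.05 counted as a call. Genes were tested where at least 2 arrays of the fit stood above their own array's median. For each gene the groups of a fit share an estimate of the spread. A wide pair in any group therefore raises the SE of every comparison in that fit. Where a fit leaves out 1 array, its group is a single array that is assumed to vary like the other groups.

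**Figure D1:**
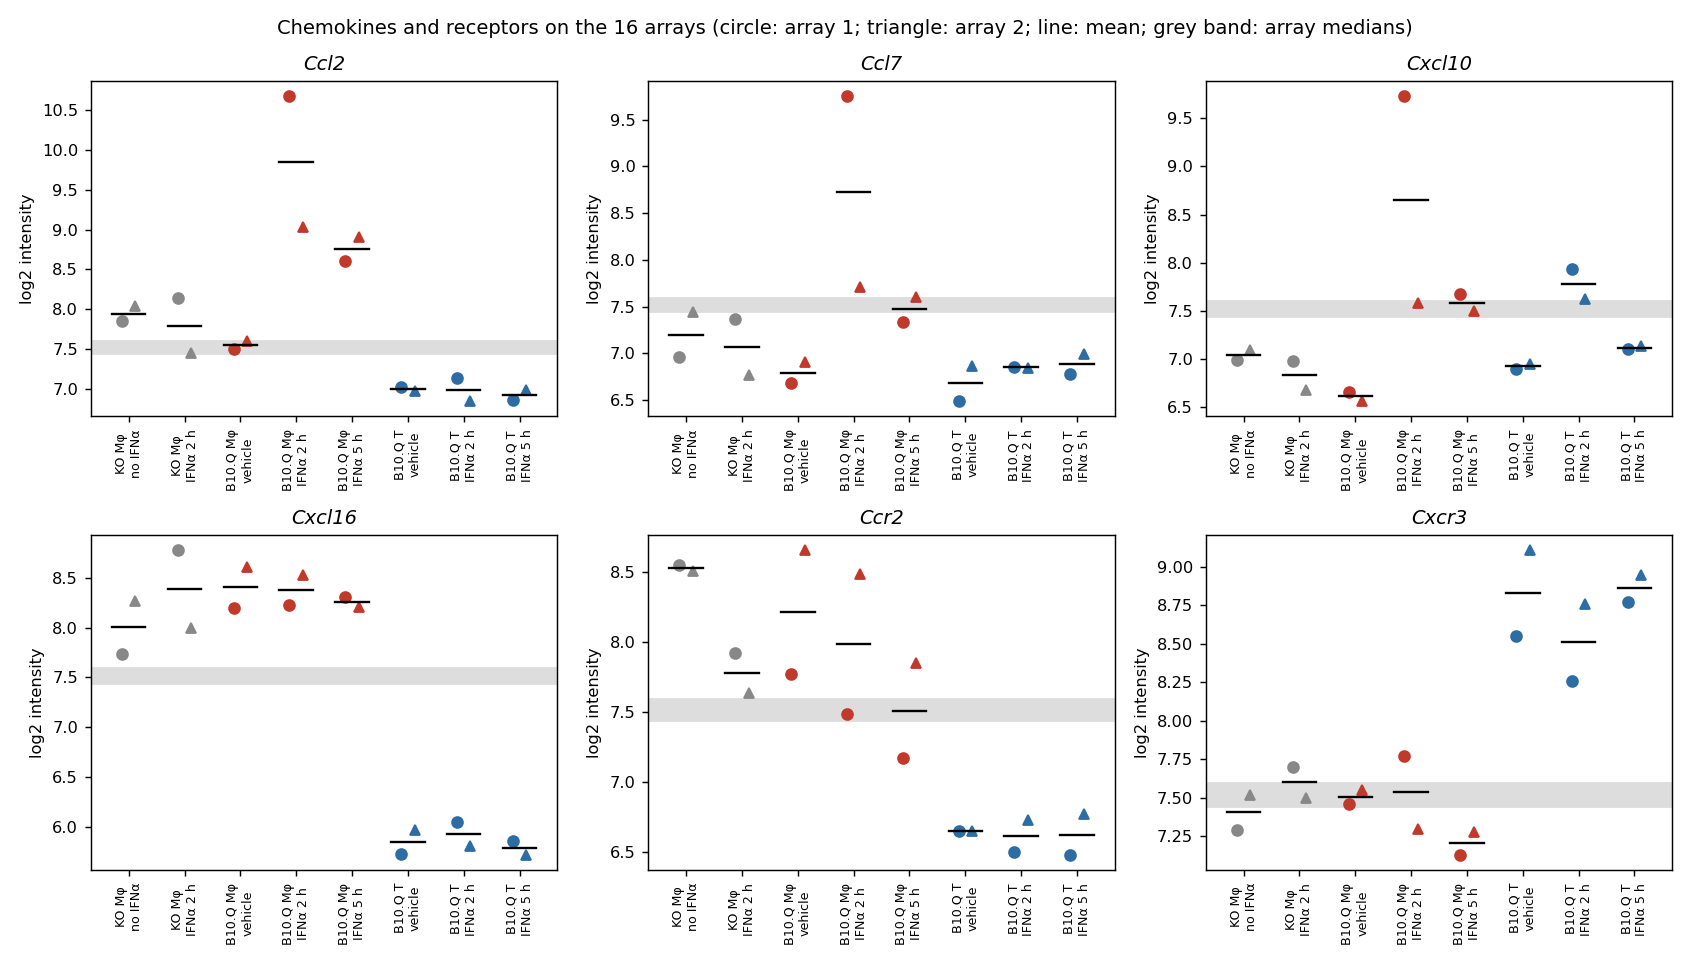
Log2 intensity of the 6 genes (vertical axes, scaled per gene) in the 8 groups; circles are array 1, triangles array 2, lines the group mean, and the grey band spans the medians of the 16 arrays. Ccl2, Ccl7 and Cxcl10 are highest in B10.Q macrophages 2 h after IFNα, with array 1 well above array 2; Cxcl16 and Ccr2 separate macrophages from T cells, and Cxcr3 does so the other way.

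In B10.Q macrophages Ccl2 was 4.93-fold higher 2 h after IFNα than after vehicle. Vehicle-treated macrophages read Ccl2 at 7.50 (2 h) and 7.60 (5 h). Both arrays 2 h after IFNα were higher, at 10.67 and 9.03. At 5 h they stood at 8.60 and 8.91, also above both vehicle arrays. The difference at 2 h was 2.30 ± 0.42 on the log2 scale (n = 2 against 2, limma, adjusted p = 0.0354), and Ccl2 was the only one of the 6 genes called there, where 0.798% of 10531 genes were called. The 5 h difference, 1.20 ± 0.42 (2.30-fold), was not called (limma, adjusted p = 0.731). Its SE includes the spread of the 2 h pair (SD 1.16), against SDs of 0.22 at 5 h and 0.08 after vehicle. At 5 h limma called 0 of the 6 genes and 0.836% of all genes tested, and 1 of the 6, Ccl2, was under an unadjusted p of 0.05, as were 3.93% of genes. From 2 h to 5 h Ccl2 differed by -1.10 ± 0.42 (limma, adjusted p = 0.904). Between these times limma called 0 of the 6 and 0.00950% of genes, and 2 of the 6, Ccl2 and Ccl7, were under an unadjusted p of 0.05, against 5.02% of genes. The 2 h and 5 h differences share their vehicle arrays. The call at 2 h was lost without IFNα array 1, where the difference was 1.48 (limma, adjusted p = 0.101). It was also lost without vehicle array 1 (2.25, adjusted p = 0.263 by limma) and without vehicle array 2 (2.35, adjusted p = 0.222 by limma). Without IFNα array 2 the difference was 3.12 (limma, adjusted p = 0.000684). Under quantile normalization the 2 h difference was 2.29 and not called (limma, adjusted p = 0.0705). In a fit of the compared groups alone the 5 h difference was called (limma, adjusted p = 0.00128).

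Ccl7 lies next to Ccl2 in the GRCm38.p6 gene order, within the chemokine cluster of chromosome 11, and encodes a ligand that shares CCR2 with CCL2. Its vehicle arrays read 6.68 and 6.91. At 2 h after IFNα array 1 stood at 9.75 and array 2 at 7.71. At 5 h the arrays read 7.34 and 7.60. Both arrays at either time were above both vehicle arrays, but the pair at 2 h was far apart. The 2 h difference of 1.93 ± 0.51 (3.81-fold) was not called (limma, adjusted p = 0.247), nor was the 5 h difference of 0.68 ± 0.51 (limma, adjusted p = 1.00). Without IFNα array 2 at 2 h, when array 1 alone stood for the group, the Ccl7 difference was 2.95 (limma, adjusted p = 0.00121). Ccl7 passed the filter on low values through 3 arrays, both at 2 h and array 2 at 5 h, so it had to be higher after IFNα to be tested at all.

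Cxcl10 in vehicle-treated B10.Q macrophages read 6.66 and 6.56. Array 1 at 2 h read 9.73 and array 2 read 7.58. The 5 h arrays read 7.67 and 7.50, close to each other and to array 2 at 2 h. The 2 h difference was 2.05 ± 0.50, or 4.14-fold (limma, adjusted p = 0.179), and the 5 h difference 0.98 ± 0.50, or 1.97-fold (limma, adjusted p = 1.00). Neither was called, although the 5 h difference was in a fit of the compared groups alone (limma, adjusted p = 0.00129). Without IFNα array 2 at 2 h, with array 1 alone in the group, the difference was 3.12 (limma, adjusted p = 5.57e-05), and the 5 h level then lay 2.14 below the 2 h level (log2 difference -2.14, limma, adjusted p = 0.00498). Without IFNα array 1 the 5 h and 2 h levels differed by 0.00. Cxcl10 passed the filter only through the 4 B10.Q macrophage arrays after IFNα.

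Ccl2, Ccl7 and Cxcl10 were thus the 3 members whose arrays at 2 h both exceeded both vehicle arrays, a pattern found in 11.3% of the genes tested. The same 3 did so at 5 h, where 19.1% of genes did. Ccl7 and Cxcl10 passed the filter only through arrays after IFNα. The filter thus favoured this pattern for them, and the shares over all genes are no like comparison. Fewer cells of a type and less RNA per cell cannot be told apart in these bulk samples.

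The distance between the B10.Q arrays at 2 h was wide for the 3 ligands. Array 1 exceeded array 2 by 1.64 for Ccl2, with 10 of 10531 genes (0.095%) wider apart. For Ccl7 it exceeded array 2 by 2.05, with 4 genes wider apart. For Cxcl10 the gap was 2.14, with 3 genes wider apart. The median gap over all genes was 0.15. Mx1, an interferon-induced antiviral GTPase, differed by 1.04 between the same arrays, in the same direction. Array 1 also stood apart as a whole: the ratio of its upper to its lower quartile of intensity was 6.06, against 7.14 to 7.52 on the other 5 B10.Q macrophage arrays. The monocyte marker list averaged 8.47 on array 1 and 8.67 on array 2, and the neutrophil list 6.72 and 6.68. The dendritic cell list averaged 7.04 and 6.90. The title of array 1 carries the peritoneal cavity code and that of array 2 the spleen code, although both name the peritoneal cavity as source. The vehicle and 5 h B10.Q macrophage titles carry the spleen code too, so array 1 at 2 h is the one that differs. The part of the quartile ratio, the markers and the title code in the gap was not tested.

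**Figure D2:**
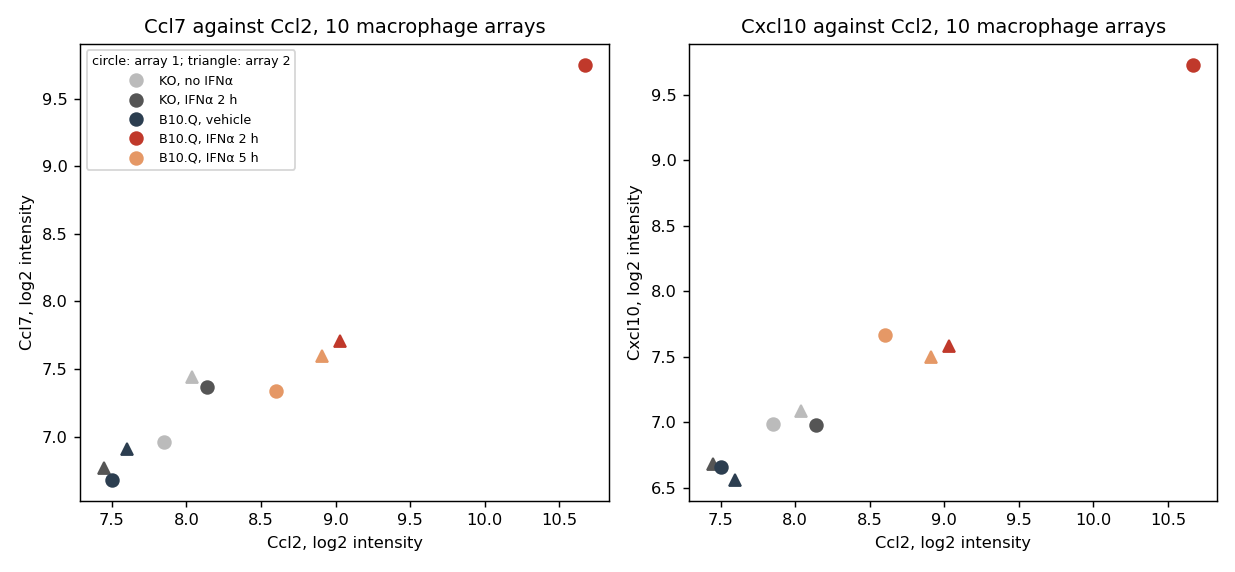
Log2 intensity of Ccl7 (left) and Cxcl10 (right) against Ccl2 on the 10 macrophage arrays, coloured by group; circles are array 1 and triangles array 2. The 3 ligands are ordered much alike over the arrays, and B10.Q IFNα array 1 at 2 h stands apart at the upper right of both panels.

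Across the 10 macrophage arrays the levels of these ligands ran together. Ccl2 correlated with Cxcl10 at r = 0.971 and with Ccl7 at 0.963, and Ccl7 with Cxcl10 at 0.972. These are descriptions over 10 arrays that share groups, so the shared difference between groups enters each r. Over the 8 arrays other than the B10.Q pair at 2 h, the values were 0.934, 0.895 and 0.792. Among all genes tested, the 5 most like Ccl2 were Cxcl10, Ccl7, Oasl1 (0.947), 4930523C07Rik (0.947) and Ifi205 (0.939). Those most like Ccl7 were Cxcl10, Ccl2, Socs1 (0.960), Sgk1 (0.916) and Batf2 (0.913). For Cxcl10 they were Ccl7, Ccl2, 4930523C07Rik (0.953), a probe set annotated to Mir24-2 (0.945) and Cd274 (0.936). Without the pair at 2 h, Ccl2 kept values of 0.908 with Oasl1 and 0.948 with Ifi205, while Ccl7 with Sgk1 stood at 0.662 and Cxcl10 with Mir24-2 at 0.625.

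In Ifnar1 KO macrophages none of the 3 ligands was called after IFNα. Ccl2 read 7.85 and 8.04 without IFNα and 8.14 and 7.45 with it. Ccl7 read 6.96 and 7.44 without and 7.37 and 6.77 with it. Cxcl10 read 6.99 and 7.09 without and 6.98 and 6.68 with it. The Ccl2 and Ccl7 pairs overlapped, and both treated Cxcl10 arrays lay below both untreated ones, as did 10.3% of genes tested. The differences were -0.15 ± 0.42 for Ccl2, -0.13 ± 0.51 for Ccl7 and -0.21 ± 0.50 for Cxcl10, each with an adjusted p of 1.00 by limma. Their intervals at the 95% level reached from -1.08 to 0.79, from -1.26 to 1.00 and from -1.32 to 0.89. The treated KO arrays correlated at 0.9837 across genes, the lowest of all pairs. In this comparison limma called 0 of the 6 members and 0 of 10531 genes (0.00%), with 460 genes (4.37%) at an unadjusted p under 0.05, none of them a member.

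The difference between the responses of the lines was tested directly, as the 2 h change in B10.Q macrophages minus that in KO macrophages. It was 2.45 ± 0.59 for Ccl2 (limma, adjusted p = 0.205), 2.06 ± 0.72 for Ccl7 (adjusted p = 0.593) and 2.26 ± 0.70 for Cxcl10 (adjusted p = 0.487). None was called, where 0.408% of genes were; all 3, and 6.13% of genes, were under an unadjusted p of 0.05. For comparison, Mx1 had a difference of responses of 5.42 ± 0.37 (limma, adjusted p = 0.000270). Without B10.Q IFNα array 2, with array 1 alone in the group, all 3 ligands passed the threshold, at 3.27 for Ccl2, 3.08 for Ccl7 and 3.34 for Cxcl10. Ccl7 and Cxcl10 were tested only through arrays after IFNα, where they are high. Without KO IFNα array 1, Ccl2 was called at 2.79 (limma, adjusted p = 0.0468). That KO array had lower macrophage markers (mean 11.78) and higher B-cell markers (7.69) than KO IFNα array 2 (12.31 and 6.78). Its ratio of upper to lower quartile of intensity was 5.49, the lowest of all arrays, against 7.00 on KO IFNα array 2. The part of these markers and of the quartile ratio in the result was not tested.

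Without IFNα, Ccl2, Ccl7 and Cxcl10 read lower in B10.Q than in KO macrophages, and none of these differences was called. The differences, B10.Q vehicle minus KO, were -0.39 ± 0.42 for Ccl2 (adjusted p = 0.711), -0.40 ± 0.51 for Ccl7 (adjusted p = 0.752) and -0.44 ± 0.50 for Cxcl10 (adjusted p = 0.730). The arrays of each did not overlap, which held in the same direction for 24.4% of genes; 0.541% of genes were called in either direction and 0 of the 6 members. At an unadjusted p under 0.05 limma had 1215 genes (11.5%), and again none of the 6. KO array 1 without IFNα had higher neutrophil markers (mean 7.55) and B-cell markers (7.43) than KO array 2 (6.81 and 6.91) and the vehicle arrays (6.63 and 6.74 for neutrophil, 6.76 and 6.80 for B-cell markers). The part of these markers in the differences was not tested.

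Cxcl16, the membrane-bound ligand, lay above the array median in every macrophage group, and after IFNα its pairs overlapped with their controls. B10.Q macrophages read 8.20 and 8.61 after vehicle. At 2 h after IFNα the arrays read 8.23 and 8.53, within the vehicle range. At 5 h they read 8.31 and 8.21, also within it. The difference at 2 h was -0.03 ± 0.26 with a 95% interval from -0.61 to 0.55 (limma, adjusted p = 0.997), and its sign turned to 0.03 under quantile normalization. At 5 h it was -0.15 ± 0.26, from -0.73 to 0.43 (limma, adjusted p = 1.00). KO macrophages read 7.74 and 8.27 without IFNα and 8.78 and 8.0 with it, a difference of 0.39 ± 0.26 (limma, adjusted p = 1.00). Without KO IFNα array 2 this was 0.78 and called (limma, adjusted p = 0.0426), in a fit that then called 1191 genes, and without KO IFNα array 1 it was 0.00. All 10 macrophage arrays had Cxcl16 above their own median.

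The genes most like Cxcl16 over the macrophage arrays were Zfp414 (r = 0.910), Tnfrsf13b (0.898), Tmem8b (0.875), 4930426L09Rik (0.874) and Gm5617 (0.868), over 10 arrays. None of them was among those most like the other ligands.

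The receptor Ccr2, which binds CCL2 and CCL7, was present above the array median on 8 of 10 macrophage arrays. Vehicle-treated B10.Q macrophages read 7.77 and 8.66. The arrays 2 h after IFNα read 7.49 and 8.49, and those at 5 h read 7.17 and 7.85. Array 1 lay below array 2 in all 3 B10.Q macrophage pairs, by 0.89 after vehicle, 0.99 at 2 h and 0.68 at 5 h. Only 10, 36 and 23 of 10531 genes were wider apart in these pairs. The KO pairs were close, at 8.55 and 8.51 without IFNα and at 7.92 and 7.64 with it. Both treated KO arrays lay below both untreated ones, as did 10.3% of genes tested.

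None of the Ccr2 changes after IFNα was called. They were -0.22 ± 0.36 at 2 h and -0.70 ± 0.36 at 5 h in B10.Q and -0.75 ± 0.36 at 2 h in KO macrophages, with limma adjusted p-values of 0.986, 1.00 and 1.00. The difference between lines at 2 h was 0.53 ± 0.50 (limma, adjusted p = 1.00). Monocyte markers were measured beside Ccr2, since monocytes carry this receptor. F13a1, a monocyte and macrophage transglutaminase, was also lower on array 1 than on array 2 in each B10.Q macrophage pair: 10.55 and 11.50 after vehicle, 10.93 and 11.32 at 2 h, and 10.73 and 11.10 at 5 h. The 4 measured monocyte markers together averaged 8.34 and 8.62, 8.47 and 8.67, and 8.59 and 8.51 in those pairs, so the list did not follow Ccr2 at 5 h. Their part in the Ccr2 levels was not tested.

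Cxcr3, the receptor of CXCL10, stood near the array median on macrophage arrays and above it on every T-cell array. In B10.Q macrophages it read 7.46 and 7.55 after vehicle, 7.77 and 7.30 at 2 h, and 7.13 and 7.28 at 5 h. KO macrophages read 7.29 and 7.52 without IFNα and 7.70 and 7.50 with it. The 2 h pair overlapped with vehicle, and both 5 h arrays lay below both vehicle arrays, as did 20.3% of genes. The changes in B10.Q macrophages were 0.03 ± 0.17 at 2 h and -0.30 ± 0.17 at 5 h, and that in KO macrophages was 0.20 ± 0.17 (limma, adjusted p = 0.997, 1.00 and 1.00). Its place in the macrophage fit rested on 3 arrays above their median, in 3 different groups.

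**Figure D3:**
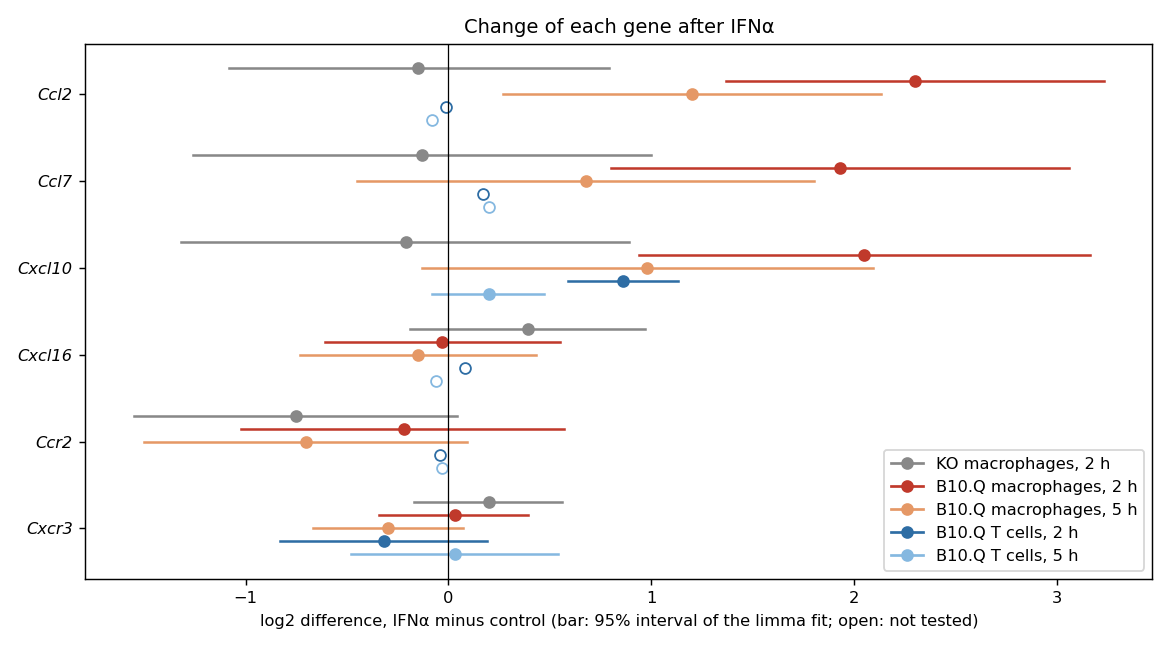
Log2 difference between IFNα and control for each gene in 5 comparisons; bars are 95% intervals of the limma fit and open circles mark genes below the filter, which were not tested. Ccl2 at 2 h in B10.Q macrophages (2.30) and Cxcl10 at 2 h in T cells (0.86) are the called differences. Both calls were lost in some alternative fits, and Cxcl10 was tested in T cells only through its 2 h arrays, where it is high.

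In B10.Q CD4 T cells Cxcl10 was the member that rose after IFNα. Vehicle arrays read 6.89 and 6.95. At 2 h both arrays were higher, at 7.93 and 7.62, and at 5 h they read 7.10 and 7.13. The 2 h difference was 0.86 ± 0.12, or 1.81-fold (n = 2 against 2, limma, adjusted p = 0.0449), where 0.287% of 10112 genes were called and 14.5% had both arrays above both vehicle arrays. At 5 h it was 0.20 ± 0.12 (limma, adjusted p = 1.00), with both arrays above vehicle, as for 21.7% of genes. At 5 h limma called 0.0198% of genes and 0 of the 6 members, with 0 of the 6 and 3.83% of genes under an unadjusted p of 0.05. From 2 h to 5 h Cxcl10 differed by -0.66 ± 0.12 (limma, adjusted p = 0.296), with 0.00989% of genes called and 9.85% under an unadjusted p of 0.05, Cxcl10 among them. The 2 h and 5 h differences share the vehicle arrays. Only the 2 arrays at 2 h had Cxcl10 above the array median, so it was tested through its high group alone. The call was lost without vehicle array 1 (0.83, limma adjusted p = 0.603) and without vehicle array 2 (0.89, adjusted p = 0.563). Without either array at 2 h Cxcl10 fell below the filter and was not tested. With the replicate number as a block the adjusted p was 0.0585 by limma, with quantile normalization 0.0565, and in a fit of these groups alone 0.218.

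Macrophage markers were higher on the same T-cell arrays. Of 8 peritoneal macrophage markers, 6 were higher on both arrays at 2 h than on both vehicle arrays, and 0 were lower, against 14.5% and 19.4% of all genes tested. Their mean was 8.43 and 7.45 at 2 h, against 7.16 and 7.06 after vehicle and 7.15 and 7.07 at 5 h. Alox15, a lipoxygenase of resident peritoneal macrophages, read 10.69 and 8.32 at 2 h, against 6.79 and 7.41 after vehicle. Itgam, the integrin chain CD11b, read 8.73 and 7.39, against 7.02 and 7.14. Gata6, the transcription factor that defines these macrophages, read 7.21 and 6.62, against 6.70 and 6.74, and lay below the array median on all 6 T-cell arrays. Array 1 was the higher of the pair for these markers and for Cxcl10, and its ratio of upper to lower quartile was 6.62, against 6.97 to 7.36 on the other 5 T-cell arrays. Ccl2, which rose in macrophages at 2 h, read 7.14 and 6.85 on these T-cell arrays, against 7.03 and 6.98 after vehicle. Other chemokine genes that stood higher in vehicle-treated macrophages than in T cells rose or overlapped with vehicle, and none of those named here had a lower mean at 2 h. Both 2 h T-cell arrays exceeded both vehicle arrays for Ccl6 (difference 1.32), Pf4 (1.26), Cxcl13 (1.18), Ccl9 (0.83) and Cxcl2 (0.17). Ccl24 (0.09), Cxcl12 (0.09), Ccl3 (0.07), Cxcl14 (0.05) and Cxcl16 overlapped with vehicle. These genes were below the filter in T cells and were not tested. The part of the markers and the quartile ratio in the Cxcl10 result was not tested.

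**Figure D4:**
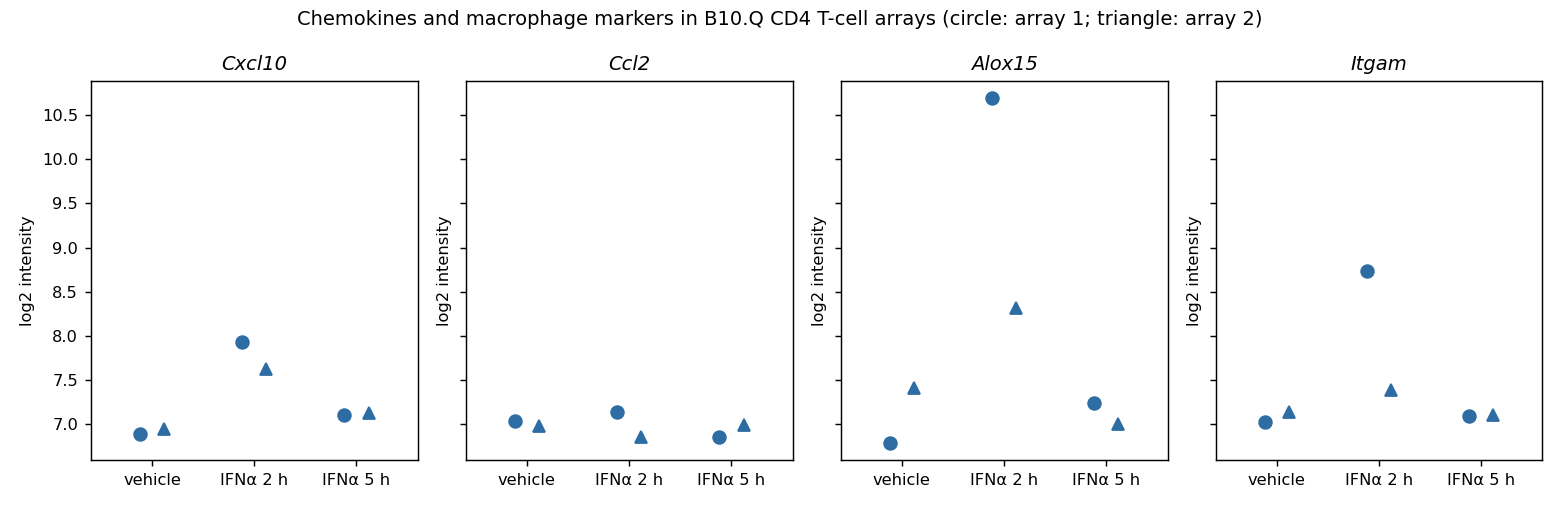
Log2 intensity of Cxcl10, Ccl2 and the macrophage markers Alox15 and Itgam (shared vertical axis) on the 6 B10.Q CD4 T-cell arrays after vehicle and 2 h and 5 h after IFNα; circles are array 1, triangles array 2. Cxcl10 and both markers are highest at 2 h, with array 1 above array 2, and Ccl2 overlaps between the 3 groups.

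The receptor Cxcr3 was high in T cells, at 8.55 and 9.11 after vehicle, 8.26 and 8.76 at 2 h and 8.77 and 8.95 at 5 h. These pairs overlapped with vehicle at both times. The differences were -0.32 ± 0.22 at 2 h, with a 95% interval from -0.83 to 0.19, and 0.03 ± 0.22 at 5 h, from -0.48 to 0.54 (limma, adjusted p = 0.763 and 1.00). The other 4 members were below the array median on all 6 T-cell arrays and were not tested. Their differences at 2 h were -0.01 for Ccl2, 0.17 for Ccl7, 0.08 for Cxcl16 and -0.04 for Ccr2.

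The 2 h responses of macrophages and T cells were compared directly. The macrophage change exceeded the T-cell change by 2.31 ± 0.50 for Ccl2 (limma, adjusted p = 0.300), by 1.77 ± 0.62 for Ccl7 (adjusted p = 0.643) and by 1.19 ± 0.64 for Cxcl10 (adjusted p = 0.703). None was called, and 0.0269% of 11161 genes were; Ccl2 and Ccl7, and 7.30% of genes, were under an unadjusted p of 0.05. Ccl7 and Cxcl10 were tested here only through arrays after IFNα, where they are high. Leaving out macrophage array 1 at 2 h gave 1.49 for Ccl2. Leaving out macrophage array 2, so that array 1 alone stood for the group, gave 3.13 for Ccl2, 2.79 for Ccl7 and 2.26 for Cxcl10. Without T-cell array 2 at 2 h, Ccl2 stood at 2.17. At 5 h the differences were 1.29 ± 0.50 for Ccl2 (adjusted p = 0.823), 0.48 ± 0.62 for Ccl7 and 0.78 ± 0.64 for Cxcl10 (both 1.00), with 0.251% of genes called and 4.98%, among them Ccl2, under an unadjusted p of 0.05. In a fit of the compared groups alone the 5 h values for Ccl2 and Cxcl10 had adjusted p-values of 0.000948 and 0.00676.

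Between the cell types themselves, after vehicle, 3 of the 6 members differed, where 62.1% of 11161 genes did. Cxcl16 measured 5.90-fold higher in macrophages than in T cells: the T-cell arrays read 5.73 and 5.97, against the macrophage values above, and the difference was 2.56 ± 0.15 (limma, adjusted p = 1.36e-08). It lay in the lowest quartile on all 6 T-cell arrays, and whether that level is above background is not given by these values, so the fold may be a lower bound. Ccr2 was 2.95-fold higher in macrophages, with T cells at 6.65 and 6.65 and a difference of 1.56 ± 0.33 (limma, adjusted p = 0.00112). Both Cxcl16 and Ccr2 were below the array median on all 6 T-cell arrays. They were thus tested only through macrophage arrays, where they are high, and the share over all genes is no like comparison for them. Cxcr3 was 2.50-fold lower in macrophages, a difference of -1.32 ± 0.21 (limma, adjusted p = 0.000117). The arrays did not overlap for these 3 genes, nor for Ccl2, which read higher in macrophages, and Cxcl10, which read lower; 37.2% of all genes did not overlap with macrophages higher and 48.5% with macrophages lower. Ccl2 at 0.54 ± 0.36, Ccl7 at 0.11 ± 0.44 and Cxcl10 at -0.31 ± 0.45 were not called (limma, adjusted p = 0.208, 0.842 and 0.575). A filter at the 70th percentile of each array removed Cxcl16 and Ccr2 from testing and left the Cxcr3 call. Cell type, organ and sort cannot be told apart here.

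Ordered by group mean, Ccl2 ran from 9.85 ± 1.16 (SD, n = 2) in B10.Q macrophages at 2 h through 8.75 ± 0.22 at 5 h to 7.94 ± 0.13 in untreated KO macrophages, and none of these neighbours overlapped. The KO treated group followed at 7.80 ± 0.49 and B10.Q vehicle at 7.55 ± 0.08, each overlapping with the one before. The 3 T-cell groups came last, between 7.01 and 6.92, and overlapped with each other. For Ccl7, B10.Q macrophages at 2 h (8.73 ± 1.45) did not overlap with the remaining 7 groups, whose means ran from 7.47 to 6.68 with overlap between all neighbours. For Cxcl10, B10.Q macrophages at 2 h (8.66 ± 1.52), T cells at 2 h (7.78 ± 0.22) and macrophages at 5 h (7.58 ± 0.13) led and overlapped. T cells at 5 h (7.12), untreated KO macrophages (7.04), vehicle T cells (6.92) and treated KO macrophages (6.83) followed. The lowest Cxcl10 group was vehicle-treated B10.Q macrophages (6.61 ± 0.07). For Cxcl16 the 5 macrophage groups (8.41 to 8.0) overlapped as neighbours and lay 2.07 above the first T-cell group. Ccr2 fell into macrophage means from 8.53 to 7.51 and T-cell means from 6.65 to 6.61, again with the only gap between neighbours at the cell type. Cxcr3 had T-cell means of 8.86, 8.83 and 8.51, then 0.91 lower the macrophage groups from 7.60 to 7.20, of which the lowest, B10.Q at 5 h, did not overlap with its neighbour.

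The genes most like Ccr2 over all 16 arrays were H1f5 (r = 0.942), Kif15 (0.937), Knl1 (0.931), Ckap2l (0.930) and Diaph3 (0.927). Within the 10 macrophage arrays the same genes stood at 0.829, 0.792, 0.827, 0.720 and 0.706. Those most like Cxcr3 were Lrrc32 (0.980), Grasp (0.978), Tigit (0.978), Trp53i13 (0.977) and Cand2 (0.975), with values over the 6 T-cell arrays of 0.952, 0.942, 0.913, 0.805 and 0.927. The difference between cell types enters each value over 16 arrays.

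**Figure D5:**
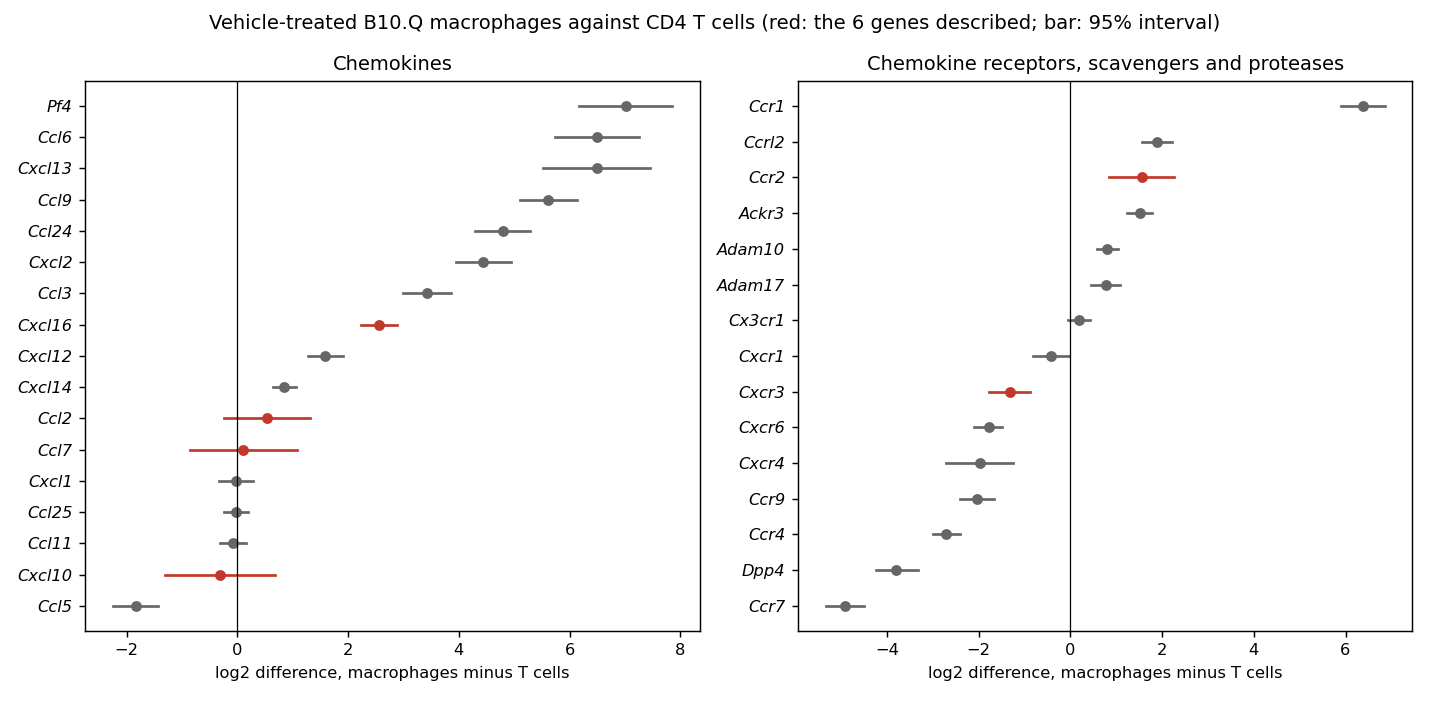
Log2 difference between vehicle-treated B10.Q macrophages and CD4 T cells for the tested chemokines (left) and for the tested receptors, scavenging receptors and proteases (right), with 95% intervals of the limma fit; the 6 genes described are red. Cxcl16 (2.56) and Ccr2 (1.56) lie to the macrophage side and Cxcr3 (-1.32) to the T-cell side. Cxcl16 and Ccr2 were tested only through macrophage arrays, where they are high.

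The wider chemokine system was read from lists of ligands, receptors and associated genes. The lists include the 6 members described above. Of 21 CC chemokines, 7 passed the filter in the macrophage fit, and 1, Ccl2, was called at 2 h after IFNα. At an unadjusted p under 0.05 there were 3, the members Ccl2 and Ccl7 and, beside them, Ccl3. The shares of all tested genes were 0.798% and 4.52%. Their median difference was 0.11, against -0.06 over all genes tested. Of 17 CXC, C and CX3C chemokines, 8 were tested and 0 were called, with a median of 0.02. By limma 1 was at an unadjusted p under 0.05, the member Cxcl10. Ccl7 and Cxcl10 were tested only through arrays after IFNα, so these counts are no separate evidence on the lists. Of 18 receptors, 6 were tested and 0 were called, with a median of 0.02 and 0 at an unadjusted p under 0.05. Of 8 atypical receptors and processing genes, 4 were tested and 0 called (median -0.04), with 1 at an unadjusted p under 0.05. At 5 h 0 genes of these lists were called by limma, with 2, 1, 1 and 1 at an unadjusted p under 0.05, against 0.836% and 3.93% of all genes tested.

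Some list members came near the threshold in B10.Q macrophages at 2 h; they were picked after their values were seen. Ccl3, a ligand of CCR1, read 10.58 and 10.37, against 9.59 and 9.79 after vehicle, a difference of 0.78 ± 0.17 (limma, adjusted p = 0.107). In KO macrophages Ccl3 differed by -0.56 ± 0.17 (adjusted p = 0.911), and the difference of responses was 1.34 ± 0.24 (adjusted p = 0.0571). Ccrl2, an atypical receptor, differed by 0.74 ± 0.18 (adjusted p = 0.201). NF-kB feedback genes, such as Nfkbia and Tnfaip3, were counted because the Cxcl10 window holds the NF-kB letters: of 10 listed, 8 were tested and 0 called at 2 h, with a median of 0.13 and 2 at an unadjusted p under 0.05, against a median of -0.06, 0.798% called and 4.52% at that p over all genes. One of these is the cytokine gene Il6, at 1.18 ± 0.38 (adjusted p = 0.601).

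Other chemokine genes near the ligands were read as well. Ccl11, Ccl12 and Ccl8, which follow Ccl7 on chromosome 11 in the GRCm38.p6 order, were below the filter in macrophages. Ccl12 read 6.11 and 5.23 at 2 h, against 5.09 and 5.26 after vehicle. Ccl11 read 7.34 and 7.18, against 7.29 and 7.43, and Ccl8 read 5.22 and 5.26, against 5.11 and 5.04. Cxcl9 and Cxcl11 encode the other ligands of CXCR3, and Cxcl9 lies close to Cxcl10, with Art3 between them. Cxcl9 read 6.75 and 6.43 at 2 h, against 6.68 and 6.63, and Cxcl11 read 6.24 and 6.11, against 6.07 and 6.09. None of these 5 genes was tested in macrophages.

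The receptor side of Cxcl16 was measured through Cxcr6, its receptor on T and NK cells. Cxcr6 was 1.78 lower in vehicle-treated macrophages than in T cells (log2 difference -1.78 ± 0.14, limma, adjusted p = 2.14e-07), opposite to Cxcl16. In T cells it differed by -0.13 ± 0.15 at 2 h and 0.01 ± 0.15 at 5 h after IFNα (limma, adjusted p = 0.820 and 1.00). The proteases Adam10 and Adam17, which cleave membrane-bound CXCL16, were 0.81 and 0.77 higher in macrophages. Dpp4, a protease that trims CXCL10 and other chemokines, was lower there (-3.79 ± 0.21). All 3 were called by limma, as was Cxcr6, in a comparison where 62.1% of 11161 genes were called. Cxcr6 and Dpp4 were below the filter in macrophages and were tested here through T cells, where they are high.

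Across the lists, 4 of 9 tested CC chemokines were called higher in vehicle-treated macrophages than in T cells and 1, Ccl5 (-1.83), lower, where 28.1% of all genes were called higher and 34.1% lower. Ccl6 (6.49 ± 0.35), Ccl9 (5.61), Ccl24 (4.79) and Ccl3 (3.42) were the 4. Of 8 tested CXC, C and CX3C chemokines 6 were higher and 0 lower, led by Pf4 (7.01) and Cxcl13 (6.49 ± 0.44). Of 10 tested receptors 2 were higher, Ccr1 (6.38) and Ccr2, and 6 were lower, among them Ccr7 (-4.91), the lymph-node homing receptor, and Ccr4 (-2.71). The list medians were 0.54, 2.07 and -1.55, against -0.07 over all genes tested. Ccl6, Ccl9, Ccl24, Ccl3, Pf4, Cxcl13 and Ccr1 were below the filter in T cells, and Ccl5 and Ccr4 in macrophages. Each was thus tested through the cell type where it is high.

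The components upstream of the ligands showed no called difference at 2 h in B10.Q macrophages. Ifnar1 differed by -0.15 ± 0.15, Ifnar2 by -0.02 ± 0.10 and Tyk2 by -0.03 ± 0.13 (limma, adjusted p = 0.984, 0.996 and 0.995). Mx1, by contrast, was 37.2-fold higher (5.22 ± 0.26, adjusted p = 1.44e-05). In T cells at 2 h Mx1 read 7.23 and 6.41, against 5.96 and 5.84 after vehicle, and was below the filter.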

How the data were processed

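The authors deposited 1 intensity per probe set and array on a linear scale; RMA and Affymetrix Power Tools are named per the submitters' processing notes, with versions, build and background steps not given in the sources used here. The deposited intensities were transformed to log2 here without further normalization. Of 24922 probe sets, 21425 had 1 gene symbol, 1399 several and 2098 none; probe sets with 1 symbol gave 19752 genes, and for 921 genes with several probe sets the one with the highest mean was used. Symbols were checked through Entrez IDs (19677 matched, 0 changed). Groups followed the titles, with these exceptions. For 1 T-cell vehicle array the title begins with a B-cell code, and it was placed by its cell family. All B10.Q macrophage titles but that of array 1 at 2 h carry a spleen code. Those arrays were placed by their source, the peritoneal cavity.

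Models were fitted with limma 3.58.1 (lmFit, eBayes; R 4.3.3) over the 10 macrophage arrays, the 6 T-cell arrays or, between cell types, the 12 B10.Q arrays. Genes with at least 2 arrays above their own median were tested, p-values were adjusted by Benjamini-Hochberg over all of them, and calls were made at 0.05. The fits were tested on simulated data. Alternatives changed the filter, scaling, variance model, replicate block, arrays in the fit and single arrays. Named were the 6 members in every comparison, list genes called after IFNα, Ifnar1, Ifnar2, Tyk2, Cxcr6, the family members Ccl8, Ccl11, Ccl12, Cxcl9 and Cxcl11, and for each member the 5 genes with the highest Pearson r; Mx1 and other genes were added after their values were seen. The members and lists were chosen with earlier results of these data known. Upstream sequences came from RefSeq, where 3 of 6 members matched. Ccl2, Ccl7 and Cxcl16 are named only.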

Additional observations from a re-analysis of the deposited data

How the results depend on the processing

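Of 672 recomputed changes of single members, 636 stayed on their side of the threshold, 18 of these with a change of sign of no more than 1 SE. A further 9 lost the call, 17 gained one, and 10 without a call moved by more than 1 SE, 8 of them with a change of sign at 2 decimals. The number of the 6 members called, per comparison, moved as follows. In B10.Q macrophages at 2 h (1 called), 0 were called under quantile normalization and 0 to 3 with single arrays left out. At 5 h (0 called), 2 were called, Ccl2 (adjusted p = 0.00128 by limma) and Cxcl10 (0.00129), when the compared groups were fitted alone. Between 5 h and 2 h, leaving out arrays gave 0 to 1, in KO macrophages 0 to 1, and for the difference of responses between lines 0 to 3. In T cells at 2 h (1 called), 0 were called under the filter at the 70th percentile, under quantile normalization, in the compared groups alone and with any array left out (0 to 0). Between cell types after vehicle (3 called), the filter at the 70th percentile left 1. For the difference of responses between cell types, leaving out arrays gave 0 to 3 at 2 h, and the compared groups alone gave 2 at 5 h. The cause was not tested; the 70th percentile filter removes Cxcl10 in T cells by its construction.

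The replicate numbers of the titles do not name shared animals. Deviations from the group means of same-numbered arrays correlated at -0.22 to 0.36 in macrophages and -0.07 to 0.09 in T cells. These values compare groups within a cell type, whose mice differed in line, treatment or time after injection. They cannot show whether macrophages and T cells came from shared animals. Macrophage and T-cell arrays of the same number were not compared, and the fits between cell types took them as separate. With the replicate block, 0 members were called in T cells at 2 h (Cxcl10 0.86, adjusted p = 0.0585 by limma), and no other call of a member changed. The pair in KO macrophages at -0.22 was also crossed, chosen after seeing the data, with 0 of all genes called.

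The number of all genes called also moved. In B10.Q macrophages at 2 h (84) it was 36 to 123 with arrays left out, and at 5 h (88) 29 to 38, or 203 in the compared groups alone. Between 5 h and 2 h (1) it was 1 to 5, or 40 alone. In KO macrophages (0) it was 0 to 1191, or 1 under quantile normalization. For the difference between lines (43) it was 8 to 491. Between untreated lines (57) it was 21 to 33, 30 under the stricter filter and 198 alone. In T cells at 2 h (29) it was 0 to 1817, 14 under quantile normalization and 2 alone. At 5 h (2) it was 0, 1 under the stricter filter, 4 with array medians subtracted and 63 alone. Between 5 h and 2 h in T cells (1) it was 0 to 1641, 3 without a filter or with medians subtracted, and 0 under the stricter filter or alone. For the difference between cell types at 2 h (3) it was 1 to 511, with 7, 5, 6 and 1 for no filter, medians subtracted, trend and robust variance, and alone; at 5 h (28) it was 6 to 11, with 9 under quantile normalization, 17 with trend and robust variance and 140 alone.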
